A study of Homo sapiens with 5 samples.

Results

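Aminoacyl-tRNA synthetase genes were examined for lactylation of lysine 12 of histone H4 (H4K12la) and for binding of the glucocorticoid receptor (GR) in the established renal carcinoma line 786-O, of human origin. The set was a list of 33 genes, taken by their spans on GRCh38 from 20037 protein-coding genes. The genes encode 18 cytosolic enzymes, of which GARS1 and KARS1 also supply the mitochondrion, and 15 mitochondrial enzymes. Chromatin was profiled by CUT&Tag, in which an antibody brings a transposase to its target and the cut DNA is sequenced. H4K12la was profiled in 2 libraries of cells kept for 48 h in 10 µM dexamethasone, a synthetic glucocorticoid, and in 2 libraries of untreated control cells. GR was profiled in 1 library of dexamethasone-treated cells. No genetic change was labelled in any group, and no label states that replicates were separate cultures.

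An aminoacyl-tRNA synthetase joins an amino acid to the tRNA that reads its codons, the step that fixes the meaning of the genetic code. Separate nuclear genes serve the cytosol and the mitochondrion for most amino acids, and in the cytosol several of the enzymes sit in a multi-synthetase complex held together by scaffold proteins. In amino acid shortage the transcription factor ATF4 raises many of the cytosolic genes through C/EBP-ATF response elements near their start sites. H4K12la is a histone mark formed from lactate-derived acyl groups and is found at promoters of active genes, where GR, a transcription factor that dexamethasone activates, can also bind.

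The dexamethasone lists held 82382 and 68980 H4K12la peaks, against 129848 and 115182 in the control lists, and the GR list held 8065. Sequencing depth is unknown, and the height of a peak, the whole number that the authors deposited for its summit, is not stated to be scaled to depth. Over all genes the median height of a start-site peak was 24 and 24 in the dexamethasone lists, against 50 and 56 in the control lists, so every height below has to be read beside that general difference. Of 6 genes known from renal carcinoma lines, 4 and 3 had a peak at a gene end in the dexamethasone lists, against 4 and 4 in the control lists. Among them PAX8, a renal transcription factor gene, had heights of 27 and 18 in dexamethasone libraries and 140 and 119 in control libraries, whereas PAX2 had no end peak in any list. CA9, a carbonic anhydrase gene that shares an end window with TPM2, went the other way, with heights of 29 and 26 in dexamethasone libraries and no end peak in control libraries. Of 6 markers of blood, endothelial, liver and muscle cells, 0 and 0 had an end peak in the dexamethasone lists and 1 and 1 in the control lists.

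H4K12la peaks were listed at fewer synthetase start sites in dexamethasone-treated cells than in untreated cells, where every start site that could be placed had one. A start site with strand was available for 29 of the 33 genes and for 15842 protein-coding genes. A peak within 1 kb of it was listed for 16 and 17 of the 29 genes in dexamethasone libraries (55.2% and 58.6%) and for 29 and 29 in control libraries. Over all genes the shares were 30.4% and 24.1% in dexamethasone libraries and 58.7% and 59.8% in control libraries. Both control lists held a start-site peak for all 29 synthetase genes with a start site, beside 54.9% of all genes.

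The 29 genes then split by what the dexamethasone lists held. A peak was in neither dexamethasone list for 6 genes (20.7%), namely CARS1 and QARS1 among cytosolic enzymes and NARS2, PARS2, SARS2 and YARS2 among mitochondrial ones. The same control-only pattern was seen in 23.6% of all genes, a share close to that of the synthetase genes. Set against the genes that had a start-site peak in both control lists, it was 6 of 29 synthetase genes (20.7%), against 43% of 8693 genes. All 4 lists held a peak for 10 synthetase genes (34.5%), against 17% of all genes. All 29 had a peak in both control lists, so the like base is the 8693 genes, of which 2689 had a peak in all 4 lists. The other 13 synthetase genes had a peak in 1 dexamethasone list, 6 in replicate 1 alone and 7 in replicate 2 alone. The dexamethasone replicates thus disagreed for almost as many of the 29 genes as they agreed on. Of the 8693 genes with a start-site peak in both control lists, 2262 had one in 1 dexamethasone list. Among these it was in replicate 1 alone for 1556 and in replicate 2 alone for 706. No synthetase gene had a start-site peak in both dexamethasone lists and neither control list, a pattern of 0.511% of all genes. Without dexamethasone replicate 1 the control-only count was 12, and without dexamethasone replicate 2 it was 13.

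**Figure D1:**
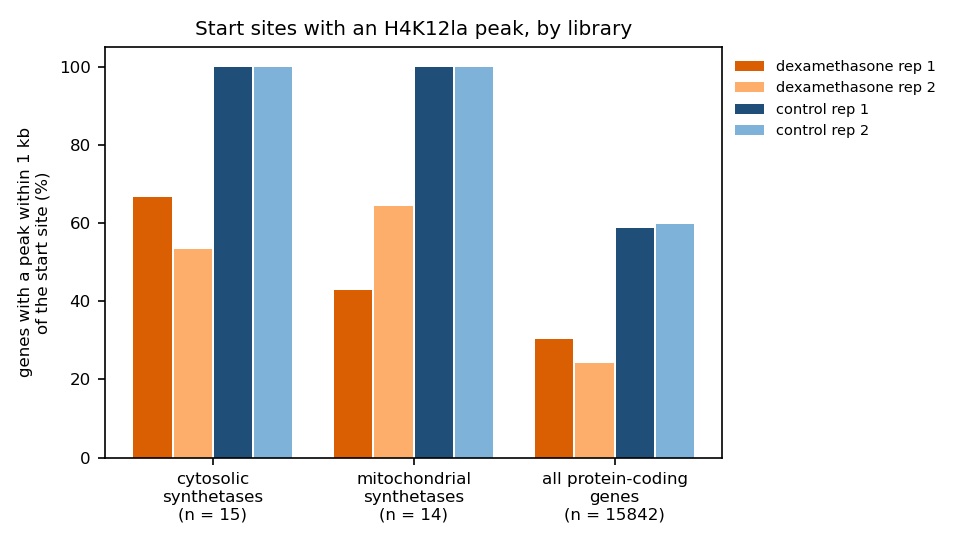
Share of genes with an H4K12la peak within 1 kb of the start site (vertical axis, percent) for 15 cytosolic synthetase genes, 14 mitochondrial synthetase genes and all 15842 protein-coding genes, with 1 bar per library. Both control bars stand at 100% for the synthetase genes, the dexamethasone bars lie between 42.9% and 66.7%, and the dexamethasone replicates change order between the cytosolic and the mitochondrial genes.

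The promoters are shown where they hold the C/EBP-ATF response element core, the element through which ATF4 acts, because most of its matches in this set lie in genes of cytosolic enzymes. The core was searched as TGATGNAA on both strands in the RefSeq promoters of GRCh38.p14, which run from 250 bases before to 50 bases after each start site. It was found in 6 of 29 synthetase promoters (20.7%), in 5 of 15 cytosolic and 1 of 14 mitochondrial ones, against 401 of 15842 promoters of the same length (2.53%). Each stretch below holds 60 bases, read 5′ to 3′ on the strand of the gene, with the core in capitals.
CARS1: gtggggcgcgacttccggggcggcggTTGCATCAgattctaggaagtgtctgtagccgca
IARS1: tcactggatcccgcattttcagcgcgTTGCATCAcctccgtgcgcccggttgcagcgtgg
MARS1: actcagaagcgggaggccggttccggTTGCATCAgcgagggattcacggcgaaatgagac
NARS1: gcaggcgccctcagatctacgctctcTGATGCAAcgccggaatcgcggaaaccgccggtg
TARS1: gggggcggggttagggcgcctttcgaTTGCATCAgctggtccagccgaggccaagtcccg
YARS2: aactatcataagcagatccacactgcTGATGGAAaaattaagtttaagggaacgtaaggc
They lie at chr11:3057392-3057451 on the minus strand, chr9:92293677-92293736 on the minus strand, chr12:57488038-57488097 on the plus strand, chr18:57621789-57621848 on the minus strand, chr5:33440941-33441000 on the plus strand and chr12:32756061-32756120 on the minus strand. With the start site counted as base 0, the core began at base -2 in CARS1, -13 in IARS1, -4 in MARS1, 14 in NARS1 and 2 in TARS1. In YARS2 it began at base -197, and it read TGATGGAA, where each cytosolic gene read TGATGCAA on one of its strands. All 6 start sites had H4K12la peaks in both control lists. Of them TARS1 had one in both dexamethasone lists, IARS1 and MARS1 in replicate 1 alone, NARS1 in replicate 2 alone, and CARS1 and YARS2 in neither. A match describes these letters only and does not show that a factor was bound there.

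The multi-synthetase complex genes among the 18 cytosolic ones were EPRS1, IARS1, LARS1, QARS1, MARS1, KARS1 and RARS1. At the 6 with a start site, a peak was listed for 4 and 2 in dexamethasone libraries and for 6 and 6 in control libraries. RARS1, which charges arginine, had a peak in every list, with heights of 26 and 24 in dexamethasone libraries and 80 and 59 in control libraries. The groups did not overlap. IARS1, which charges isoleucine, had a height of 29 in dexamethasone replicate 1 and no peak in replicate 2, against 155 and 167 in control libraries. EPRS1, whose enzyme charges both glutamate and proline, had a height of 26 in dexamethasone replicate 2 alone, against 82 and 120 in control libraries. KARS1, the lysine enzyme of both compartments, had 28 in dexamethasone replicate 1 alone and 73 and 94 in control libraries. These 3 genes had a low peak in a single dexamethasone list, and it was not the same list for each. MARS1, the methionine enzyme, had 31 in dexamethasone replicate 1 alone and 65 and 55 in control libraries. QARS1, which charges glutamine, had no start-site peak in either dexamethasone list and heights of 64 and 69 in control libraries. LARS1, the leucine enzyme gene, had no entry for its start site. A peak at one of its ends was listed in control libraries, with heights of 184 and 191, and in neither dexamethasone library.

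Among the other cytosolic genes, TARS1, which charges threonine, had some of the highest control peaks. Its start site had heights of 31 and 31 in dexamethasone libraries and 208 and 196 in control libraries, a log2 difference of -2.70 (dexamethasone minus control). GARS1, the glycine enzyme of both compartments, had 37 and 28 in dexamethasone libraries and 121 and 151 in control libraries, a log2 difference of -2.07. SARS1, which charges serine, had 21 and 24 in dexamethasone libraries and 90 and 89 in control libraries, a log2 difference of -2.00. In these 3 genes both dexamethasone values were below both control values by a margin wider than the gap between replicates. FARSB, the beta subunit of the phenylalanine enzyme, had the highest control heights at any synthetase start site, with 29 in dexamethasone replicate 1, no peak in replicate 2, and 219 and 233 in control libraries. FARSA, the alpha subunit of the same enzyme, had 27 in dexamethasone replicate 2 alone and 46 and 65 in control libraries. The subunits of 1 enzyme thus differed in height and in the dexamethasone list that held them. WARS1, which charges tryptophan, had 26 in dexamethasone replicate 1 alone and 150 and 136 in control libraries. NARS1, which charges asparagine, had 22 in dexamethasone replicate 2 alone and 112 and 114 in control libraries. CARS1, which charges cysteine, had no start-site peak in either dexamethasone list and heights of 42 and 60 in control libraries, and was the cytosolic gene with the lowest mean control height there. For WARS1 a divergent gene, WDR25, starts 158 bp away, and for KARS1 the gene TERF2IP starts 108 bp away, so their peaks cannot be assigned to 1 gene.

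The mitochondrial genes covered a similar span of heights. WARS2, which charges tryptophan, had start-site heights of 23 and 25 in dexamethasone libraries and 158 and 159 in control libraries. Its span is chr1:119031216-119140672, and the log2 difference of -2.72 was the largest of the 10 genes with a start-site peak in all 4 lists. The mean height was 24 ± 1.41 in dexamethasone libraries and 158.5 ± 0.707 in control libraries (SD, n = 2 each), with p = 0.333 by a two-sided exact permutation test. That is the smallest p that 6 assignments of 4 libraries can give, so this test cannot reach the usual threshold for any gene at this number of libraries. FARS2, the phenylalanine enzyme gene, had the highest start-site peaks of the set in both dexamethasone lists, 39 and 46 in dexamethasone libraries and 106 and 216 in control libraries. LARS2, which charges leucine, had 22 and 21 in dexamethasone libraries and 65 and 92 in control libraries. The cysteine enzyme gene CARS2 showed the smallest log2 difference of the 10, -0.76, with heights of 21 and 18 in dexamethasone libraries and 34 and 32 in control libraries. HARS1 and HARS2, which charge histidine in the cytosol and in the mitochondrion, start 85 bp apart on opposite strands and share their peaks, with heights of 23 and 19 in dexamethasone libraries and 68 and 64 in control libraries. Of the 29 start sites 8 had a divergent start site within 1 kb, among them also FARS2 (LYRM4, 57 bp away), RARS2 (ORC3, 148 bp away) and EARS2 (UBFD1, 377 bp away).

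A further group of mitochondrial genes had a peak in 1 dexamethasone list. TARS2, which charges threonine, had 29 in dexamethasone replicate 2 alone and 149 and 131 in control libraries. EARS2, which charges glutamate and also loads the mitochondrial glutamine tRNA for later conversion, had 32 in dexamethasone replicate 1 alone and 121 and 150 in control libraries. RARS2, the arginine enzyme gene, had 30 in dexamethasone replicate 2 alone and 117 and 111 in control libraries. EARS2 was the only one of 5 such mitochondrial genes whose peak was in replicate 1. MARS2, the methionine enzyme gene, had 24 in dexamethasone replicate 2 alone and 47 and 44 in control libraries. IARS2, the isoleucine enzyme gene, had 23 in dexamethasone replicate 2 alone and 27 and 58 in control libraries, so its dexamethasone value lay close to the lower control value.

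Start-site peaks in neither dexamethasone list were found at mitochondrial genes of unequal control height. YARS2, which charges tyrosine, had 115 and 147 in control libraries, the highest of the control-only start sites, and PARS2, which charges proline, had 68 and 86. SARS2, the serine enzyme gene, had 74 and 66 in control libraries, and its start site lies 181 bp from that of MRPS12, a mitochondrial ribosomal protein gene on the opposite strand. NARS2, the asparagine enzyme gene, had 41 and 37 in control libraries. Control-only start sites were thus spread from low to high control heights. By compartment, 2 of 15 cytosolic genes (13.3%) and 4 of 14 mitochondrial genes (28.6%) were control-only, and 5 of each had a peak in all 4 lists. Without dexamethasone replicate 2 the control-only counts were 5 cytosolic and 8 mitochondrial genes, and without dexamethasone replicate 1 they were 7 and 5.

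**Figure D2:**
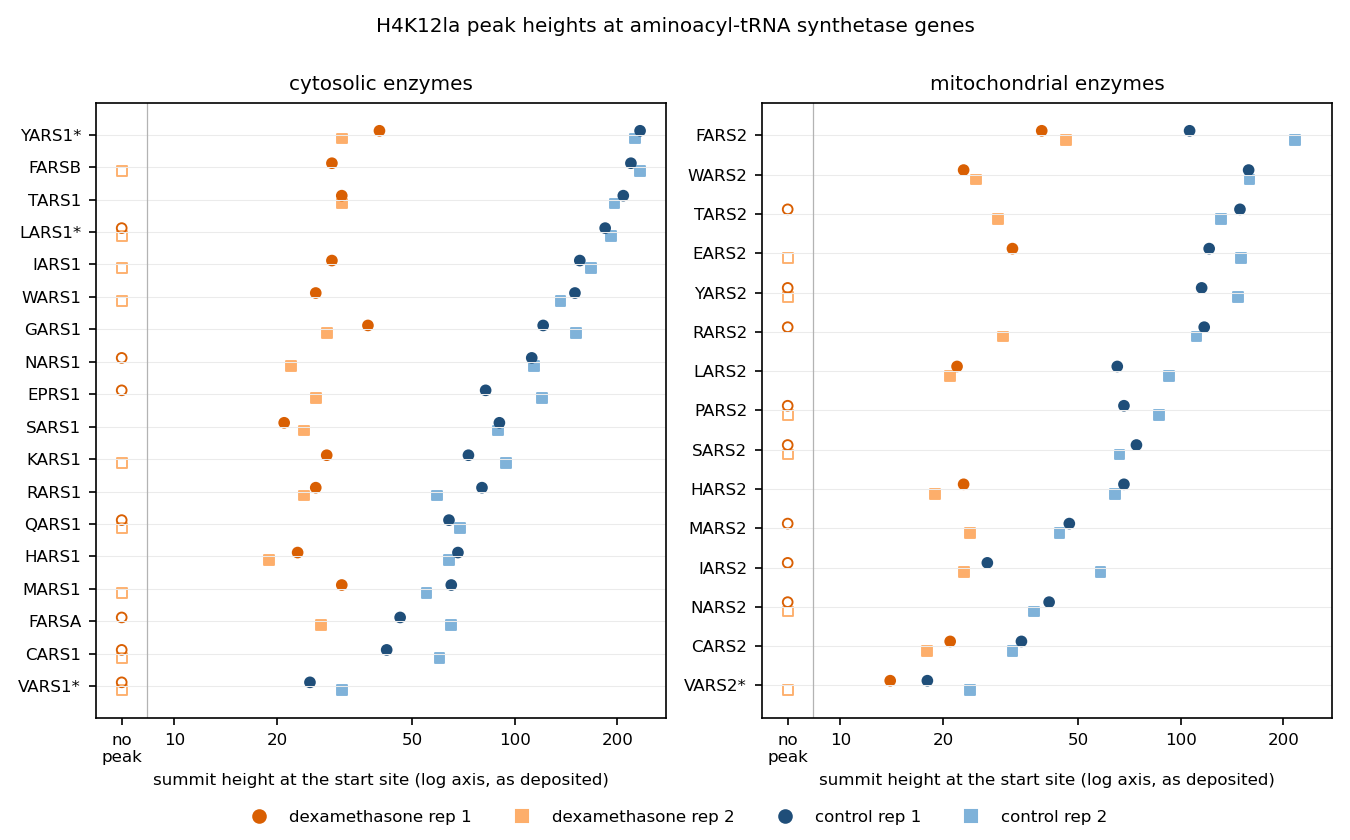
Deposited summit heights (horizontal log axis) of the highest H4K12la peak within 1 kb of the start site for each synthetase gene, cytosolic on the left and mitochondrial on the right, with 1 marker per library and open markers where no peak was listed. For the 4 genes with an asterisk, which have no start site in the promoter table, the higher end peak is shown. Dexamethasone markers crowd between 14 and 46, whereas control markers reach 233.

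Over all synthetase start sites with a peak, the median height was 27 and 24 in dexamethasone libraries, with ranges of 21 to 39 and 18 to 46, and 80 and 92 in control libraries, with ranges of 27 to 219 and 32 to 233. The dexamethasone medians lay close to the all-gene medians of 24 and 24, whereas the control medians were above the all-gene medians of 50 and 56. In ranks within each list, which show no change between lists of different lengths, the median synthetase peak stood at the 66.2 and 50.8 percentile in dexamethasone libraries and at the 95.1 and 95.8 percentile in control libraries. The all-gene figures were 55.7 and 50.8 in dexamethasone libraries and 86.1 and 87.3 in control libraries. Peaks were also narrower, with median widths of 762.5 and 717 bp in dexamethasone libraries and 1304 and 1386 bp in control libraries, against 725 and 722 bp in dexamethasone libraries and 1022 and 1150 bp in control libraries over all genes. In all 10 genes with a peak in every list the dexamethasone heights were both lower than the control heights, a pattern of 89.8% of all genes with 4 such peaks, and in 0 they were both higher (3.61% of all such genes). Their median log2 difference was -1.84, against -1.70 over 2689 genes. With each height divided by the median start-site height of its list the values were -0.70 and -0.56. The median difference of the synthetase genes was thus close to that of all genes on either scale.

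Control height and presence under dexamethasone were related across all genes, and the synthetase genes can be read beside that. Where the mean control height was 100 or more, 16.4% of 1671 genes were control-only, as was 1 of 13 synthetase genes (YARS2). Between 50 and 100 the share was 40.3% of 3374 genes, beside 4 of 12 synthetase genes. Below 50 it was 57.8% of 3648 genes, beside 1 of 4 synthetase genes (NARS2). Of the 13 synthetase genes at 100 or more, 8 had a peak in 1 dexamethasone list and 4 in both. Over the 1671 genes at that height, 60.9% had a peak in all 4 lists.

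When a peak at either end of the gene span was counted, all 33 genes could be used. An end peak was listed for 19 and 20 genes in dexamethasone libraries (57.6% and 60.6%) and for 32 and 33 in control libraries (97.0% and 100%). Over all genes the shares were 39.7% and 33.1% in dexamethasone libraries and 63.4% and 63.3% in control libraries. By this count 7 genes were control-only (21.2%, against 18.8% of all genes), 13 had a peak in all 4 lists, against 23.6%, and 0 were dexamethasone-only, against 0.764%. Of the genes with an end peak in both control lists, 7 of 32 synthetase genes were control-only (21.9%), against 31.9% of 11800 genes. On that base 13 of 32 synthetase genes had a peak in all 4 lists, beside 4737 of 11800 genes. In all 13 the dexamethasone heights were both the lower ones, as in 82.2% of 4737 genes, and in 0 both the higher ones, as in 5.53%. Their median log2 difference was -1.85, against -1.33 over all genes. The control-only genes were LARS1, QARS1, VARS1, CARS2, NARS2, PARS2 and YARS2. Without dexamethasone replicate 1 or replicate 2 the control-only count was 13. VARS1, which charges valine, had end-peak heights of 25 and 31 in control libraries only. YARS1, which charges tyrosine, had 40 and 31 in dexamethasone libraries and 233 and 225 in control libraries, the highest end peaks of the set together with those of FARSB. VARS2, the mitochondrial valine enzyme gene, had low end peaks, 14 in dexamethasone replicate 1 alone and 18 and 24 in control libraries. An end window was shared with another protein-coding gene by 16 of the 33 genes, and over all genes by 36.3%. Among them YARS1 shares end windows with NHSL3 and S100PBP, VARS1 with VWA7 and LSM2, and VARS2 with GTF2H4. Their start sites were not placed, and their end peaks are not assigned to 1 gene.

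Gene ends and start sites gave different answers for 6 genes. In CARS2 the annotated start site lies 7007 bp inside the gene span and in FARS2 it lies 11073 bp inside. Their end windows therefore miss it. CARS2 counted as control-only with heights of 40 and 49 in control libraries, and FARS2 had end peaks in dexamethasone replicate 2 (24) and control replicate 2 (13) alone. In CARS1, IARS1, MARS2 and SARS2 it was a peak at the end away from the start site that completed the 4 lists. At its far end SARS2 had heights of 45 and 40 in dexamethasone libraries and 31 and 29 in control libraries. This was the only synthetase far end with both dexamethasone heights above both control heights, and the nearest other gene, CCER2, lay 3080 bp away. At the far end of CARS1 heights of 21 and 22 stood in dexamethasone libraries, against 25 in control replicate 2 and no peak in control replicate 1. TARS1 had 34 and 37 at its far end in dexamethasone libraries and 58 and 53 in control libraries, so that in dexamethasone libraries its far end carried the higher peak and in control libraries its start site did. Of 29 far ends, 7 and 8 had a peak in dexamethasone libraries and 17 and 14 in control libraries. Over all genes the far-end shares were 17.5% and 15.5% in dexamethasone libraries and 28.3% and 26.3% in control libraries, and both dexamethasone heights were above both control heights at 18.8% of the far ends with 4 peaks. Far ends were control-only in 4 synthetase genes (13.8%, against 7.33% of all genes), had a peak in all 4 lists in 2 (6.90%, against 7.67%) and were dexamethasone-only in 0 (against 0.852%). Of the far ends with a peak in both control lists, 4 of 12 were control-only (33.3%), against 34.7% of 3343 genes. A GR peak was listed at 1 far end, that of HARS2, against 2.35% of all genes.

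Fewer peaks were also listed inside the genes, away from the windows at the span ends. In CARS2 and FARS2, whose start sites lie inside the span, start-site peaks were counted here too. There were 144 and 122 such peaks in the 33 genes in dexamethasone libraries and 235 and 200 in control libraries, or 7.36 and 6.24 per 100 kb of gene span in dexamethasone libraries and 12.01 and 10.2 in control libraries. Over all genes the densities were 4.02 and 3.46 per 100 kb in dexamethasone libraries and 6.27 and 5.57 in control libraries. The ratio of dexamethasone to control sums was 0.611 for the synthetase genes and 0.632 for all genes. Fewer were listed in both dexamethasone lists than in both control lists for 19 genes (57.6%, against 29% of all genes), and more for 0 (against 3.29%). A gene without inside peaks in control libraries cannot have fewer, which limits this comparison. Inside peaks were listed in control libraries for 29 and 29 of the 33 genes, against 12220 and 11735 of 20037 genes. As a share of each list the numbers were alike, and these peaks made up 0.178% and 0.181% of the dexamethasone lists and 0.186% and 0.178% of the control lists. The median difference per gene was -2 peaks, and 0 when the same number of highest peaks was taken from each list.

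The height of the highest inside peak, taken here also outside the start-site window, was compared with the start-site peak of the same gene. The measure was taken within 1 library and chosen after the data had been seen. An inside peak was in all 4 lists for 22 synthetase genes, with a median log2 difference of -0.19, against -0.26 over 8648 genes. The dexamethasone heights were both the lower ones for 9 of the 22 (40.9%, against 52.3% of all genes), both the higher ones for EPRS1 (against 15.7%), and overlapped for the other 12. In WARS2 the highest inside peak had heights of 37 and 36 in dexamethasone libraries and 36 and 37 in control libraries, beside start-site heights of 23 and 25 in dexamethasone libraries and 158 and 159 in control libraries. In TARS1 the inside heights were 35 and 45 in dexamethasone libraries and 44 and 52 in control libraries, beside 31 and 31 in dexamethasone libraries and 208 and 196 in control libraries at the start site. NARS2, whose start site had peaks in control libraries only, had inside heights of 53 and 52 in dexamethasone libraries and 50 and 52 in control libraries. In these 3 genes, chosen from the 12 whose inside heights overlapped, the inside peaks stood at like heights in both groups while the start-site peaks did not. FARSB, 1 of the 9 with both dexamethasone values lower, had inside heights of 36 and 39 in dexamethasone libraries and 58 and 69 in control libraries. IARS1, another of the 9, had 46 and 47 in dexamethasone libraries and 69 and 69 in control libraries. EPRS1, with both dexamethasone values higher, had 41 and 37 in dexamethasone libraries and 33 and 33 in control libraries. Of the 8 genes with both kinds of peak in all lists, the start-site log2 difference was the lower one in 8, a pattern of 90.6% of 1573 genes. Their medians were -1.92 at the start site and -0.17 inside, with a median gap of -1.63, against -1.47 over all genes. The start-site peak was 0.806 and 0.719 times as high as the highest inside peak in the median synthetase gene of dexamethasone libraries, and 2.25 and 2.52 times as high in control libraries. Over all genes these ratios were 0.8 and 0.76 in dexamethasone libraries and 1.35 and 1.49 in control libraries.

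**Figure D3:**
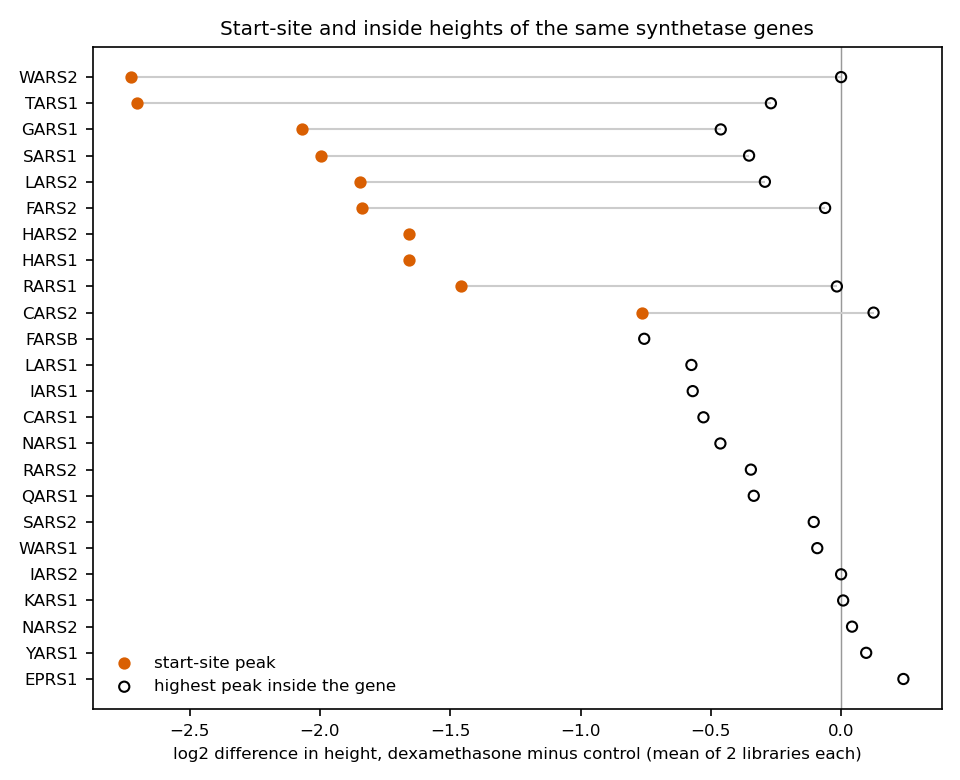
Log2 difference in deposited height (horizontal axis, mean of 2 dexamethasone libraries minus mean of 2 control libraries) for the start-site peak (filled) and the highest peak inside the gene (open) of synthetase genes that had either in all 4 lists. Start-site values run from -2.72 in WARS2 to -0.76 in CARS2, while the inside values have a median of -0.19.

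GR peaks were common at the synthetase start sites. A GR peak lay within 1 kb of 23 of 29 start sites (79.3%), against 33.8% of all genes and 56% of the 8693 genes with an H4K12la start-site peak in both control lists. At either gene end the count was 26 of 33 (78.8%), against 32.3% of all genes. HARS1 and HARS2 have the same GR peak, which is counted for each of them here. Counted by start site, the 23 peaks had a median length of 486 bp (294 to 877 bp). Their middles lay from -193 to 308 bp from the start site, with a median of 14 bp. H4K12la peaks met 14 and 14 of the 23 in dexamethasone libraries and 23 and 23 in control libraries. The start sites without a listed GR peak were those of CARS1, FARSA, KARS1, QARS1, LARS2 and YARS2. Of these 6, 3 were control-only for H4K12la (CARS1, QARS1 and YARS2), 1 had it in all 4 lists, and 2 in 1 dexamethasone list. Of the 23 with GR, 3 were control-only, 9 had H4K12la in all 4 lists and 11 in 1 dexamethasone list. The overlaps and this split stand without all-gene shares, so they are not read as a trait of these genes. The median of the mean control height was 101 (33 to 226) in the genes with a GR peak and 72.5 (51 to 131) in those without. The direction differed by compartment, with 113 with GR and 61 without among cytosolic genes, and 73.5 with GR and 104.75 without among mitochondrial genes, of which 2 lacked GR. The part of H4K12la height in the GR counts was not tested. GR was profiled once, and of row numbers reaching 15183 in that list 8065 are present in the analysed table, so the lack of a listed peak does not show that GR was absent.

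GR peaks reached both compartments, with 11 of 15 cytosolic and 12 of 14 mitochondrial start sites. The longest at a start site, 877 bp, lay at WARS1 (chr14:100375863-100376739), and EARS2 had one of 863 bp (chr16:23557110-23557972), both at start sites shared with a divergent gene. TARS1 had one of 718 bp (chr5:33440531-33441248), WARS2 one of 413 bp (chr1:119140368-119140780) and FARSB one of 410 bp (chr2:222656051-222656460). Among the genes with no start site, YARS1 had a GR peak of 1139 bp at its end (chr1:32817231-32818369). At VARS1 the GR peak at the gene end (chr6:31795681-31795974) met no H4K12la peak of any list. Both YARS1 and VARS1 share end windows with other genes, so these GR peaks are not assigned to 1 gene. LARS1, which was control-only, had a GR peak of 572 bp at its end (chr5:146182391-146182962) that met H4K12la in both control lists and neither dexamethasone list.

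**Figure D4:**
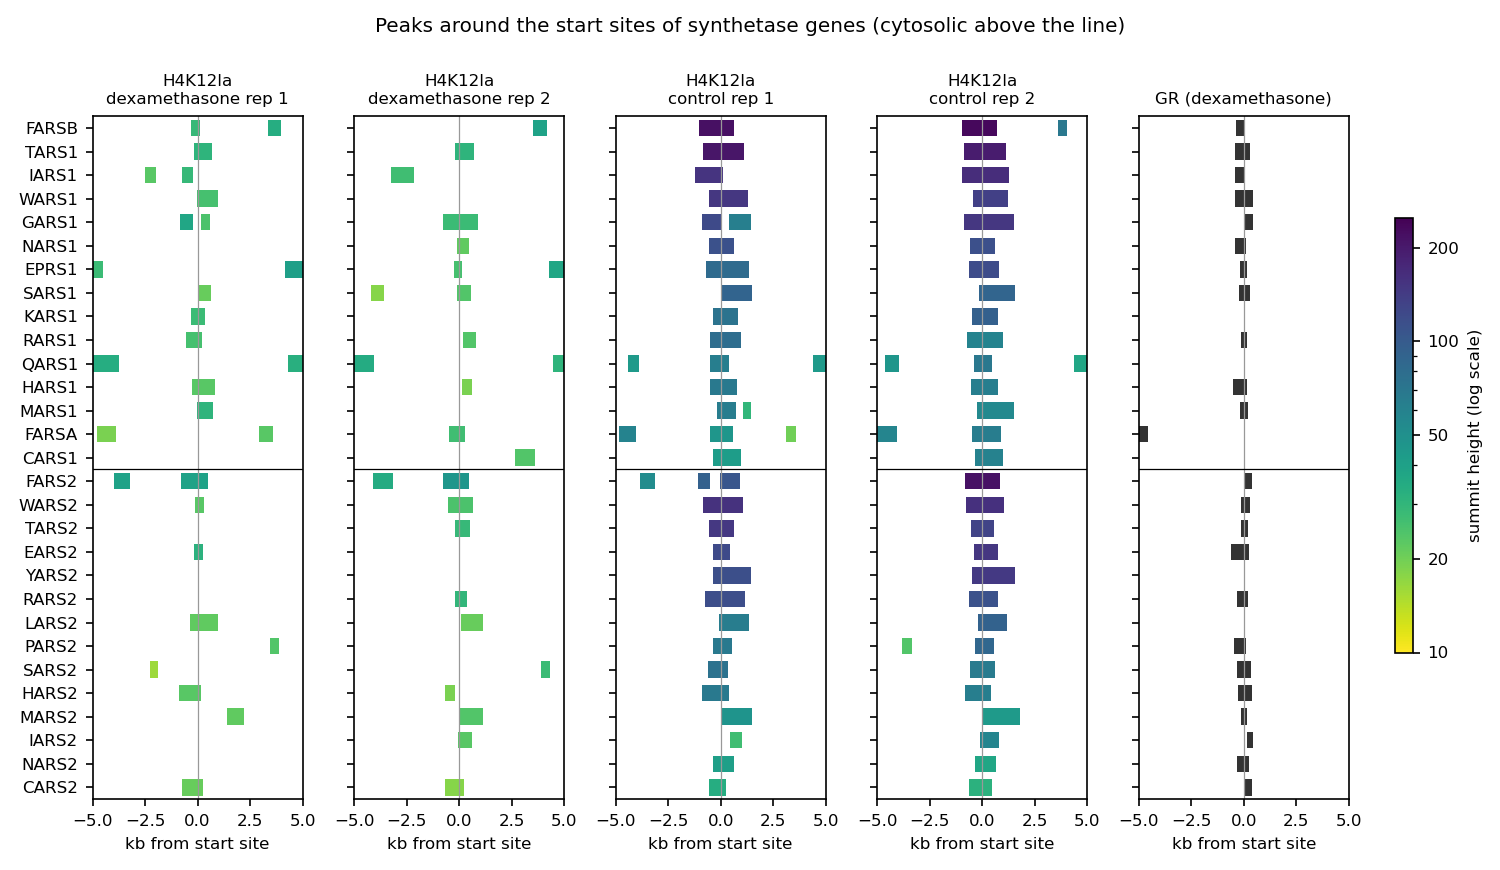
Peaks within 5 kb of the start sites of 29 synthetase genes (horizontal axis, kb from the start site in the direction of transcription), cytosolic genes above the line and mitochondrial genes below it, with a panel for each H4K12la library, coloured by height on a log scale, and one for GR. Of the peaks shown, 12 of 29 and 9 of 26 in the dexamethasone panels lie over 1 kb from the start site, against 6 of 37 and 5 of 34 in the control panels and 1 of 24 in the GR panel. Peaks shared by HARS1 and HARS2 are counted for each gene.

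The promoters of HARS2, SARS2 and PARS2 are given whole as examples. Each lies at a GR peak and has an H4K12la start-site peak in both control lists. All 23 start sites with a GR peak had that, so it does not single these out. The first also contains the start site of HARS1. Each run has 300 bases, 5′ to 3′ on the strand of the gene, from 250 bases before to 50 bases after the start site, as RefSeq gives them on GRCh38.p14, with CCGGAAG, the core of ETS family sites, in capitals on either strand.
HARS2: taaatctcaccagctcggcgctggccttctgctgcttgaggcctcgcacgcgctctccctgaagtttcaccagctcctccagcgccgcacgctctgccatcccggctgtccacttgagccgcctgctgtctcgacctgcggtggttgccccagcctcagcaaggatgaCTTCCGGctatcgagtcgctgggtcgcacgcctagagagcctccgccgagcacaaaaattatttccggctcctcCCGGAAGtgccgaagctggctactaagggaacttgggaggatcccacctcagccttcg
SARS2: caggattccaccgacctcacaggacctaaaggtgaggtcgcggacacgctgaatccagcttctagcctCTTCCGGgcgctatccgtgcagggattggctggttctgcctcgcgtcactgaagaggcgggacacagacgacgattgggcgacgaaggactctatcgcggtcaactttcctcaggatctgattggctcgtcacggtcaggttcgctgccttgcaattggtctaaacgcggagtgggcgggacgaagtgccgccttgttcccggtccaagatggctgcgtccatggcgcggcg
PARS2: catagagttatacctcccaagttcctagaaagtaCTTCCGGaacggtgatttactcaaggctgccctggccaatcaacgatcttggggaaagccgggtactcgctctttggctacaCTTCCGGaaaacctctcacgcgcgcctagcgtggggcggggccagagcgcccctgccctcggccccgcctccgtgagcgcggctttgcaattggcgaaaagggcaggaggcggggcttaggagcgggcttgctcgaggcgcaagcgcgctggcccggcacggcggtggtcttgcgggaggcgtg
They lie at chr5:140691205-140691504 on the plus strand, chr19:38930714-38931013 on the minus strand and chr1:54764474-54764773 on the minus strand. The GR peak shared by HARS1 and HARS2 (chr5:140691207-140691859) covered nearly the whole of the first, and those of SARS2 (chr19:38930407-38931092) and PARS2 (chr1:54764428-54765001) covered the other two. HARS1 and HARS2 had H4K12la in all 4 lists, whereas SARS2 and PARS2 had it in control lists only. CCGGAAG was found on either strand of 14 of 29 synthetase promoters (48.3%), against 14.2% of all 15842 promoters. The promoters shown all hold it, so they do not stand for the whole set. HARS1 and HARS2 hold the same matches, which are counted for both genes. The palindromic site of NRF1, a factor of nuclear genes for mitochondrial proteins, was found on either strand in 6 (20.7%), against 8.57% of all promoters, and CCAAT, the NFY site, in 15 (51.7%), against 36.4%. Within the synthetase promoters no match of these motifs overlapped that of another motif. The full palindrome of the glucocorticoid response element was in 0 synthetase promoters and in 0 of the 15842 promoters, which says only that its letters are not in these windows.

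Genes around tRNA charging were described from 3 lists, each counted at either gene end, where the all-gene shares with a peak were 39.7% and 33.1% in dexamethasone libraries and 63.4% and 63.3% in control libraries. Of 21 genes listed as partners of the synthetases, 12 and 13 had an end peak in dexamethasone libraries and 20 and 19 in control libraries. Most encode scaffold proteins, elongation factors or tRNA-bound amino acid converting enzymes. The list also holds DTD1, DTD2, AARSD1 and PTRH2, and TARS3, itself a synthetase gene outside the 33. Of the 21 genes 5 were control-only (23.8%, against 18.8% of all genes) and 9 had an end peak in all 4 lists (42.9%, against 23.6%). Of the genes with an end peak in both control lists, 5 of 19 partners were control-only (26.3%), against 31.9% of 11800 genes. On that base 9 of 19 had a peak in all 4 lists, beside 4737 of 11800 genes. TUFM, the mitochondrial elongation factor that carries charged tRNAs to the ribosome, had heights of 115 and 105 in control libraries only. AIMP2, a scaffold of the multi-synthetase complex, had 102 and 111 in control libraries only, and GATB, a subunit of the enzyme that converts the mitochondrial glutamine tRNA loaded by EARS2, had 62 and 59. By contrast AIMP1, another scaffold of the complex, chosen after its values were seen, had 56 and 45 in dexamethasone libraries and 389 and 330 in control libraries. AIMP1 and AIMP2 were thus listed differently under dexamethasone. EEF1E1, of the same list, had 24 and 23 in dexamethasone libraries and 98 and 110 in control libraries. AIMP1 shares an end window with TBCK, AIMP2 with PMS2 and EIF2AK1, TUFM with SH2B1 and GATB with FHIP1A. The peaks of these genes therefore cannot be assigned to 1 gene.

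Of 28 genes of the amino acid response, 12 and 15 had an end peak in dexamethasone libraries and 27 and 27 in control libraries. Of these genes 9 were control-only (32.1%, against 18.8% of all genes) and 8 had an end peak in all 4 lists (28.6%, against 23.6%). Of the genes with an end peak in both control lists, 9 of 27 were control-only (33.3%), against 31.9% of 11800 genes. On that base 8 of 27 had a peak in all 4 lists, beside 4737 of 11800 genes. ATF4, the transcription factor of that response, had a height of 21 in dexamethasone replicate 2 alone and 62 and 83 in control libraries. DDIT3, a stress transcription factor gene, shares end windows with MARS1, LOC128125814 and MBD6. Its start site had heights of 74 and 95 in control libraries only. This peak lay in neither end window of MARS1, whose highest end peaks were 65 and 55 in control libraries. Of the other control-only genes PSPH, a phosphatase of serine synthesis, had 87 and 109 in control libraries and STC2, a secreted glycoprotein gene, had 78 and 74. PSPH shares an end window with CCT6A and has no placed start site, so its peak is not assigned to 1 gene. ASNS, which makes asparagine, had start-site heights of 22 and 25 in dexamethasone libraries and 38 and 109 in control libraries. Its start site lies away from its span ends, where 1 dexamethasone list alone had a peak. The response element core was found in 5 of 21 promoters of this list (23.8%) and in 0 of 16 promoters of the partner list, against 2.53% of all promoters. Of 30 genes that cut, modify or export tRNA, 21 and 16 had an end peak in dexamethasone libraries and 28 and 28 in control libraries. Of these genes 3 were control-only (10%, against 18.8% of all genes) and 11 had an end peak in all 4 lists (36.7%, against 23.6%). With an end peak in both control lists as the base, 3 of 27 were control-only (11.1%), against 31.9% of 11800 genes. On that base 11 of 27 had a peak in all 4 lists, beside 4737 of 11800 genes. The control-only genes were POP1, of the enzyme that trims the 5′ ends of tRNAs, with 146 and 139 in control libraries, TRIT1, which modifies a base beside the anticodon, with 59 and 57, and TSEN34, of the tRNA splicing endonuclease, with 13 and 14. POP1 shares an end window with RIDA and TSEN34 with MBOAT7, so their peaks are not assigned to 1 gene. Start-site counts for the 3 lists were 8 of 16, 9 of 21 and 8 of 22 control-only genes (50%, 42.9% and 36.4%), against 6 of 29 synthetase genes (20.7%) and 23.6% of all genes. Of the genes with a peak in both control lists these were 53.3%, 42.9% and 40%, against 20.7% of the synthetase genes and 43% of all genes, and no test was made between them.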

How the data were processed

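CUT&Tag of H4K12la (4 libraries) and GR (1 library) was analysed from 1 deposited peak list per library. Per the submitters' processing notes, fastp 0.19.6 trimmed the reads, Bowtie2 was run on build GRCh38 and deepTools is also named. No peak caller, peak setting or control library was named there. The H4K12la lists give a whole-number signal at each summit (called the height), as deposited by the authors. The GR list has positions and lengths alone. Neither is stated to be scaled to depth, which is unknown, and p-values measure only the spread between libraries, which may be technical. Library labels gave the groups. Both H4K12la groups number their replicates alike, and no label ties the numbers together.

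Autosomal, X and Y peaks were used. RefSeq on GRCh38.p14 supplied gene spans (20037 genes) and start sites with strand from RefSeq promoters (15842 genes, 29 of 33 synthetase genes). LARS1, VARS1, YARS1 and VARS2 have no promoter entry. A gene had a peak where 1 bp overlapped a window of 1 kb around a start site or either span end, and its height was that of the highest such peak. Control-only genes had a peak in each control list and in no dexamethasone list, and dexamethasone-only genes the reverse. Log2 differences are means over 2 dexamethasone libraries minus means over 2 control libraries. Counts of synthetase genes stand beside the same count over all genes, since genes are not replicates, and exact permutation tests over samples were made for WARS2 and TARS1, both at the smallest p of the design. Named outside the synthetase genes are up to 3 control-only genes of each related list by mean control height, with ATF4, ASNS and DDIT3. AIMP1 and EEF1E1 were added after their values had been seen. The synthetase genes and the related lists were chosen with earlier results of these data known. Alternatives were a height floor of 20, equal peak numbers (67582 per list), windows of 500 bp and 2.5 kb, the middle of the peak, unshared windows, scaling, the replicate number as a block, and each library left out. Start-site and highest-inside-peak results were added after the files had been seen. The code was tested on simulated data with known classes. Tools were pandas 2.3.3, numpy 2.4.6, matplotlib 3.10.9 and scipy 1.17.1 under Python 3.11.15.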

Additional observations from a re-analysis of the deposited data

How the results depend on the processing

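Of 173 alternative values, 139 stayed within 1.5 times the count or 1 SD of the reported value, 34 moved further, and 0 reversed. Unknown depth and 2 libraries per group limit every value, and a gene without a listed peak is not shown to lack the mark. The cause of each change below was not tested, unless a smaller set of genes or lists gives it by construction. At either gene end, unshared windows left 17 genes, with 3 control-only genes (cytosolic 1, mitochondrial 2) and 13 with a GR peak. Windows of 2.5 kb gave 3 control-only genes (cytosolic 0), 20 genes in all 4 lists and a median log2 difference of -1.56. Scaling to the median gene-end height gave -0.85. The median difference in inside peaks was 0 with equal peak numbers, -1 for heights of 20 or more and -2.5 with windows of 500 bp. At start sites, unshared windows gave 3 control-only genes (cytosolic 1, mitochondrial 2) and 13 with a GR peak, and scaling to the median start-site height gave -0.70.

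With each library left out in turn, which loosens the rule, either-end control-only counts ran from 7 to 13 (cytosolic 3 to 7, mitochondrial 4 to 7), counts in all 4 lists from 13 to 19, the median log2 difference from -1.88 to -1.60, and the inside difference from -2.5 to -1.5 peaks. At start sites the control-only counts ran from 6 to 13 (cytosolic 2 to 7, mitochondrial 4 to 8), counts in all lists left and counts with every dexamethasone height the lower from 10 to 17, and the median log2 difference from -2.04 to -1.70. The dexamethasone-only count was 0 under every alternative run. With the replicate number as a block, 13 genes had the lower dexamethasone height in both pairs and the median log2 difference was -1.85. Both values were fixed in advance, though they are counted among those that stayed. All 13 genes had both dexamethasone heights below both control heights, and a difference of log2 means is the same for any pairing. Deviations of same-numbered libraries from their group means had r = -0.04 across 4737 genes. With 2 libraries per group this value cannot show whether same-numbered libraries were prepared together, and no label ties them.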
